A study of Mus musculus with 12 samples.

Results

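The Igf2r and Airn locus on mouse chromosome 17 was represented by 65 of the 421177 CpG sites measured by reduced representation bisulfite sequencing (RRBS) in the offspring heart. The members were all sites inside either gene or within 5 kb of it, on mm10 (GRCm38) positions. Igf2r (gene ID 16004) lies on the minus strand at chr17:12682406-12769706, and Airn (gene ID 104103) on the plus strand at chr17:12741311-12859884, so that the genes overlap over 28396 bp. All 65 sites lay inside at least 1 of the genes, 52 of them inside both, and none lay in the flanks. The nearest sites outside the 5 kb limit were 6.97 kb below Igf2r, with a mean methylation of 85.1%, and 32.7 kb above Airn, with 93.0%. Of the 65 sites, 61 had a value in all 12 samples.

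The samples were left ventricles of 12 newly weaned wild-type FVB/N mice, 3 weeks old. Offspring of mothers on High Fat Diet are called HFD here and those of mothers on Regular Diet RD. Either diet began when the mothers were 6 weeks old and lasted until the study ended, and mating to RD-fed sires followed after 8 weeks. All offspring were given RD from weaning on. HFD offspring were 3 females and 3 males, and RD offspring were 4 females and 2 males. The labels do not give the mother of each offspring, so littermates among the samples cannot be told apart from offspring of separate mothers, and p-values measure the spread between these animals. The libraries carry the numbers 2 to 8 in HFD and 9 to 14 in RD, so the effect of the diet and any effect of library order cannot be told apart. Mean methylation of X sites was 53.0 to 55.3% in females and 46.4 to 46.9% in males, and sites with a value numbered 385299 to 417081 per sample. The deposited values are percentages with no read counts, and depth is therefore unknown.

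Igf2r encodes the cation-independent mannose 6-phosphate receptor, which carries lysosomal enzymes to the lysosome and takes up IGF2, a growth factor, for degradation. In most mouse tissues it is expressed from the maternal copy. Airn is a long non-coding RNA that starts inside Igf2r, runs in the opposite direction and is transcribed from the paternal copy, where it silences Igf2r. The CpG island at the Airn start is methylated on the maternal copy from the oocyte on and is the imprint of the cluster, and the island at the Igf2r start gains methylation on the silent paternal copy after fertilization. Mice that lack Igf2r are overgrown and have enlarged hearts. The labels name FVB/N, an inbred strain, for all mice, so reads could not be assigned to a parental copy, and a region methylated on a single copy would show an intermediate level.

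Both genes matched an entry among the RefSeq promoter sequences (GRCm38.p6), and the 250 bases before each start are shown because the starts differ in what RRBS can read. CG dinucleotides are in capitals.
Airn, chr17:12741061-12741310, plus strand: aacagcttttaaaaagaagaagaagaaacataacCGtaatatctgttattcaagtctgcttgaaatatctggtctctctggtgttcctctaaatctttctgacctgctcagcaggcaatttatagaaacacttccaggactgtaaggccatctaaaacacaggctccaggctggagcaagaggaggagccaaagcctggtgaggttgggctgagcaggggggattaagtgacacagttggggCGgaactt
Igf2r, chr17:12769707-12769956, minus strand: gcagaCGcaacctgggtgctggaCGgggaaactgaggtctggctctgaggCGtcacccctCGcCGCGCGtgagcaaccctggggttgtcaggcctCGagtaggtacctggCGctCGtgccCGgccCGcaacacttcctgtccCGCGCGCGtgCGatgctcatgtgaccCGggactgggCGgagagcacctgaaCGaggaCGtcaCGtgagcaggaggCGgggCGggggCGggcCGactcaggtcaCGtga
The Airn sequence held 2 CG dinucleotides and the Igf2r sequence 27, against a median of 6 over 32817 promoters. The motif CCGG, which is cut by the RRBS enzyme MspI and reads the same on both strands, occurred 0 times before Airn and 2 times before Igf2r, and 47.0% of all promoters of this length held it. No deposited site lay in either sequence. The measured sites lay just downstream of both starts, 279 to 995 bp into Airn and 129 to 440 bp into Igf2r. The gene table used here has no exons, so exonic and intronic sites were not separated.

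The 65 sites fell into 2 groups at the starts and a few sites elsewhere. The Airn start region (chr17:12741590-12742306), inside Igf2r as well as Airn, held 14 sites. The Igf2r 5′ region (chr17:12769266-12769577), likewise inside both genes, held 38. Between these regions, over 26959 bp, the table held 0 sites, so nothing can be said of the stretch that separates the opposite imprints. The remaining 13 sites were 10 near the 3′ end of Igf2r, 2 in its body and 1 in the distal part of Airn. Mean methylation was between 20 and 80% at 47 of the 65 sites (72.3%), against 20.1% of all sites in the table. The locus was chosen by its diet difference and its intermediate levels in earlier results on these data, in which the window of Igf2r was lower in HFD, so its levels and diet differences are given as descriptions.

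**Figure D1:**
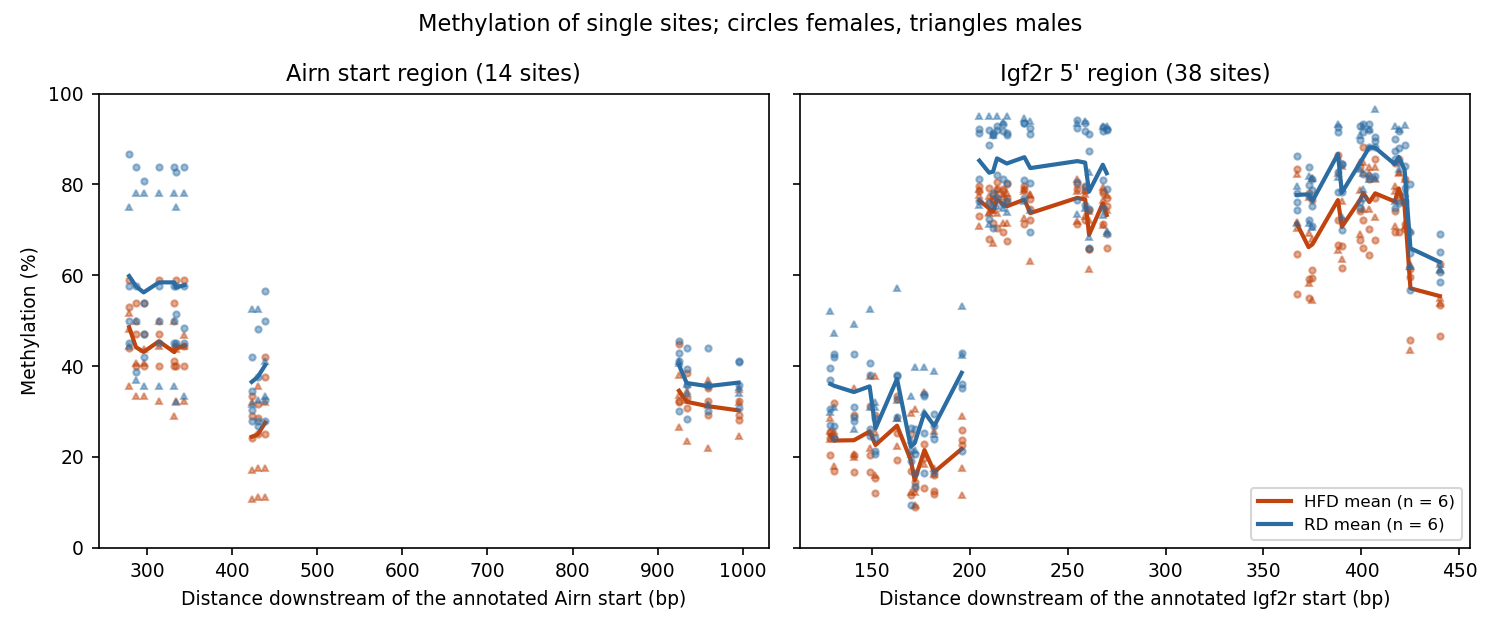
Methylation of single sites (%, vertical axis) against the distance in bp downstream of the annotated Airn start (left, 14 sites) and Igf2r start (right, 38 sites). Points are offspring, circles females and triangles males, and lines are diet means over 6 offspring within each set of neighbouring sites. Near the Igf2r start the level is low at 129 to 196 bp and higher from 205 bp on.

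In the Airn start region, the imprint of the cluster, the mean over 14 sites was 42.4% ± 9.77 (SD, n = 12). It was 29.0 to 42.5% in HFD offspring, with a median of 38.7%, and 35.7 to 59.6% in RD offspring, with a median of 47.8%. The diet means were 37.0% ± 5.15 in HFD and 47.7% ± 10.7 in RD (SD, n = 6 each), a difference of -10.7 percentage points. The groups overlapped, with 4 of the 6 RD values above the highest HFD value and 2 of the 6 HFD values below the lowest RD value. The difference was -7.91 points in females and -13.4 points in males. The value in males rests on RD male 1 at 35.7% and RD male 2 at 59.1%, against 29.0 to 40.4% in HFD males. Over both sexes the difference was -4.94 points without RD female 1 and RD male 2, the highest samples.

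The region was not uniform, and its sites formed 3 sets separated by 79 and 486 bp. Sites of a set lie close enough that the same sequencing reads may cover them, so they are not independent. In the first set (7 sites, chr17:12741590-12741655) methylation was 32.6 to 56.8% in HFD offspring, with a median of 45.1%. In RD offspring it was 36.3 to 83.7%, with a median of 53.4%. RD female 1 (83.7%) and RD male 2 (77.2%) stood apart there, and the other 4 RD offspring (36.3 to 57.1%) lay within or just above the HFD range. These 2 libraries were also the highest of the 12 over all autosomal sites (38.93 and 38.55%, against 37.54 to 38.30% in the others) and over those at 20 to 80% (57.55 and 57.14%, against 55.19 to 56.74%). The part of this wider shift in the values of the locus was not tested. The diet difference of this set was -13.3 points with all samples and -2.01 points without RD female 1 and RD male 2, a comparison added after the values had been seen. Within a sample the 7 sites differed by a median of 6.24 points between the highest and the lowest, so the high values of these 2 offspring ran through the whole set.

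In the second set (3 sites, chr17:12741734-12741750) methylation was lower, at 10.98 to 34.2% in HFD offspring with a median of 28.9%, and 28.0 to 48.9% in RD offspring with a median of 36.6%. The difference was -12.5 points, and -11.9 points without RD female 1 and RD male 2. RD female 1, the highest sample in the first set, was at 29.9% here, while RD male 2 was at 48.8%. The third set (4 sites, chr17:12742236-12742306) varied least, with 24.1 to 37.7% in HFD, 29.9 to 43.6% in RD and a difference of -5.07 points. Each set thus had its own order of samples, and the first set was above the second in 12 of 12 offspring, by 3.79 to 53.8 points.

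Of the 14 Airn sites, position 12741590 had the highest mean (54.2%) and position 12741734 the lowest (30.5%). The largest diet differences were at position 12741643 (43.1% ± 8.67 in HFD and 58.4% ± 18.97 in RD, SD, n = 6 each) and position 12741598 (44.2% ± 7.52 and 57.6% ± 19.7). The smallest were at positions 12742245 (-4.13 points) and 12742270 (-4.40 points). All 14 sites had a lower mean in HFD, and at none of them were the diets separated.

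In the Igf2r 5′ region the mean over 38 sites was 62.9% ± 6.45 (SD, n = 12). HFD offspring ranged from 53.4 to 62.7% with a median of 58.9%, and RD offspring from 59.2 to 71.9% with a median of 68.1%. The diet means were 58.4% ± 4.34 in HFD and 67.4% ± 4.89 in RD (SD, n = 6 each), a difference of -9.02 points. Of the RD offspring, 5 of 6 lay above the highest HFD value, and RD female 4 (59.2%) lay inside the HFD range. The difference was -9.48 points in females and -9.23 points in males.

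This mean joined stretches of very different level. The first set (14 sites, chr17:12769266-12769339, farthest from the Igf2r start) averaged 76.0% ± 7.65 and the second (13 sites, chr17:12769436-12769501) 79.4% ± 8.29 over the 12 offspring. The third set (11 sites, chr17:12769510-12769577, nearest to the start) averaged 26.7% ± 7.79. The second and the third set are 9 bp apart, and methylation was 29.5 to 66.7 points lower in the third, with a median of 53.5 points, in 12 of 12 offspring. Across the boundary itself, position 12769501 was 32.9 to 60.0 points above position 12769510. The boundary between these sets was drawn after the levels had been seen, so the step is described and not tested.

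In the second Igf2r set the HFD offspring were close together, at 70.0 to 77.9% with a median of 77.0%. RD offspring fell into a high group, namely RD female 1 (92.3%), RD female 2 (91.4%) and RD male 2 (93.0%), and a lower one of RD female 3 (79.6%), RD female 4 (73.6%) and RD male 1 (73.5%). Of the lower values, only that of RD female 3 lay above the HFD range. The diet difference of -8.92 points was -4.54 points without RD female 1 and RD male 2. In the first Igf2r set the same 3 RD offspring were highest, at 85.0 to 85.3%, against 73.7 to 78.2% in the other RD offspring and 61.9 to 79.3% in HFD.

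The third Igf2r set had another order. RD male 1, at the bottom of the RD range in the second set, was highest here (44.1%), followed by RD female 3 (34.2%) and RD female 2 (30.8%). HFD offspring were at 15.8 to 29.7% with a median of 21.6%, and RD offspring at 23.6 to 44.1% with a median of 30.5%. The difference of -9.46 points was -11.2 points without RD female 1 and RD male 2. These samples, at 25.6 and 30.1%, lay below the RD mean of 31.4% here, so leaving them out had to widen it. The difference of this set without RD male 1 was not computed.

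**Figure D2:**
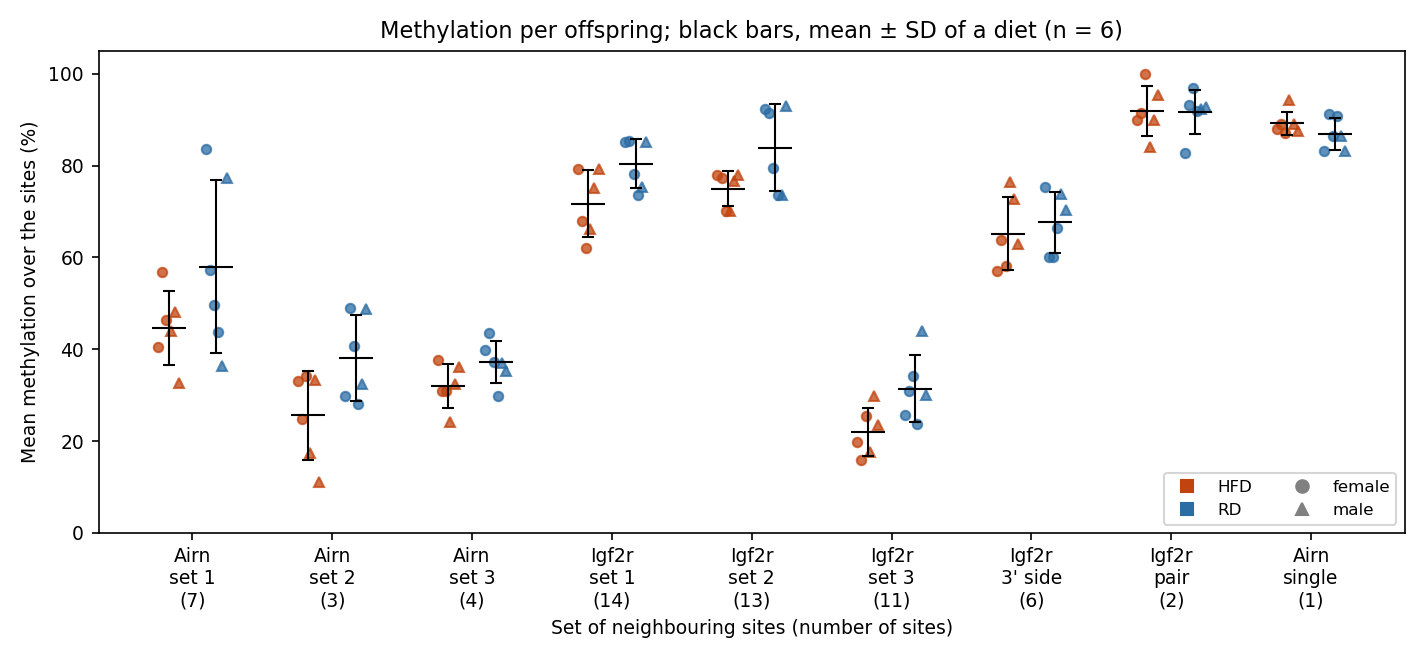
Mean methylation (%, vertical axis) of each set of neighbouring sites in each offspring, with the number of sites in brackets. Circles are females, triangles males, and black bars the mean ± SD of a diet (n = 6). In the first Airn set RD female 1 (83.7%) and RD male 2 (77.2%) lie above all other offspring.

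Among single sites of the Igf2r 5′ region, position 12769299 had the highest mean (83.0%) and position 12769534 the lowest (18.96%). The largest diet differences were at position 12769510, the first site past the step, with 21.8% ± 6.26 in HFD and 38.5% ± 10.7 in RD, and at position 12769302, with 76.1% ± 7.75 and 88.2% ± 5.37 (SD, n = 6 each). The smallest were at positions 12769536 (-2.93 points) and 12769554 (-3.61 points). All 38 sites had a lower mean in HFD.

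Over the whole locus, 60 sites met the limits for the test across all sites (autosomal, a value in all samples, mean of 5 to 95%). Of these, 57 had a lower mean in HFD, and the median of the differences was -8.83 points. Among all 157524 sites tested, 52.9% were lower in HFD and the median difference was -0.259 points, and among those at 20 to 80% the figures were 56.0% and -0.761 points. At 0 of the 60 sites was every HFD value below every RD value, which held for 0.335% of all sites. With limma, 0 of the 60 passed for diet at an adjusted p under 0.05, against 0.0102% of all sites tested. At an unadjusted p under 0.05 the count was 22 of 60, all lower in HFD, against 6.53% of all sites. The locus was chosen with this contrast known, neighbouring sites may share reads, and nothing is read from these counts. The count of 22 fell to 10 without HFD female 3, 14 without HFD female 4, 6 without HFD male 2, 14 without RD female 1, 8 without RD female 2 and 10 without RD male 2, and it rose to 33 without RD female 4 and to 29 without RD male 1.

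The spread between offspring also differed between sets. In the first Airn set the median SD of a site was 8.67 points in HFD and 18.97 points in RD, and in the second Igf2r set it was 4.07 and 9.18 points. For all 60636 autosomal sites at 20 to 80% these medians were 7.65 and 7.57 points. In the third Airn set they were 5.17 and 5.01 points, and in the third Igf2r set 6.98 and 9.25 points. The first Igf2r set went the other way, with 8.12 points in HFD and 6.04 points in RD. RD female 1 and RD male 2 were high in the first Airn set and the second Igf2r set, where RD offspring varied most relative to HFD. This difference in spread was not tested.

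The levels of the 2 regions were set side by side within each offspring, as a description. The Airn start region was below the Igf2r 5′ region in 12 of 12 offspring, by 10.7 to 33.7 points, with a mean difference of -20.5 ± 6.86 points (SD, n = 12). With the median over sites in place of the mean the difference was -32.6 points. The size of the difference depends on how many sites of each set enter the mean. The third Igf2r set, nearest to the start, averaged 26.7%, below the mean of each Airn set (31.9 to 51.3%), so the order of the regions holds for their means and not for every set.

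The regions were then compared across offspring. Over all 12, Pearson's r between the region means was 0.714 and Spearman's rho 0.615. Both regions carry the diet difference for which the locus was chosen, which builds in part of this relation, so the pooled values are given with no test. Within diets, r was -0.152 in HFD (exact permutation p = 0.693, n = 6, rho = -0.143, exact p = 0.803) and 0.847 in RD (exact permutation p = 0.0472, n = 6, rho = 0.771, exact p = 0.103). Adjusted over the 4 relations computed, the p-values for r were 0.693 and 0.0944 in these exact permutation tests, so neither passed. Without RD female 1 and RD male 2, the samples farthest from the median of the Airn region, the pooled r was 0.497 (n = 10). The pooled relation rests in part on these samples and was not seen within HFD. Each diet was also described without its 2 samples farthest from its median (n = 4, no test). The r was then 0.945 in RD, without RD male 1 and RD female 1, and -0.311 in HFD.

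**Figure D3:**
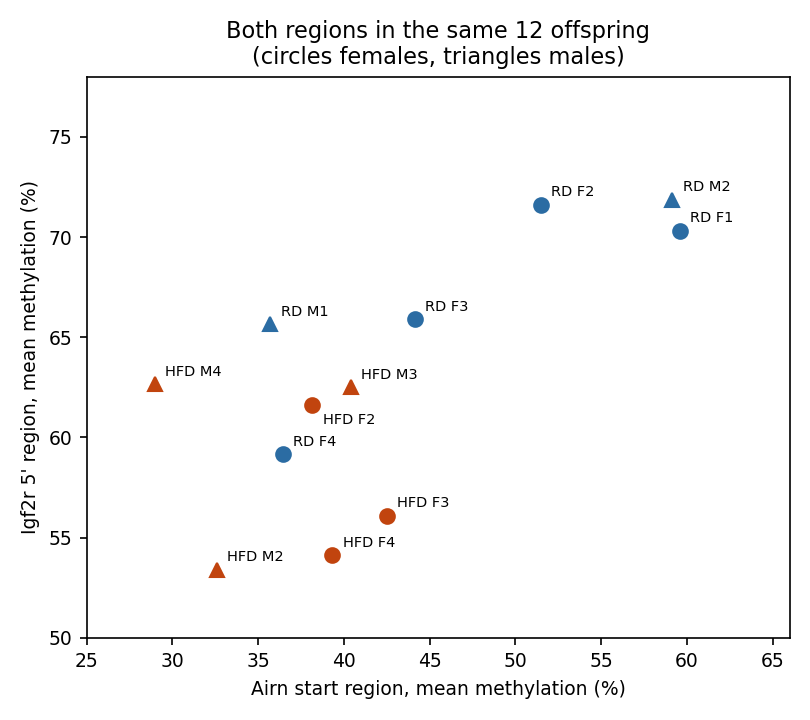
Mean methylation of the Igf2r 5′ region (%, vertical axis) against that of the Airn start region (%, horizontal axis) in the same 12 offspring, with HFD in orange and RD in blue. RD female 1, RD male 2 and RD female 2 lie at the upper right, at 51.5 to 59.6% in the Airn region and 70.3 to 71.9% in the Igf2r region.

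The 10 sites near the 3′ end of Igf2r (chr17:12689024-12689227, 6618 to 6821 bp from that end) also had intermediate methylation, with site means of 54.0 to 69.8%. Of these, 4 had no value in HFD male 2 and HFD male 4, and over the offspring with a value they differed between the diets by -1.16, -5.84, -7.69 and -11.9 points. Over the 6 sites with all values, HFD offspring were at 56.9 to 76.4% with a median of 63.4%, and RD offspring at 60.1 to 75.2% with a median of 68.3%. The diet ranges overlapped almost entirely, with a difference of -2.47 points over these 6 sites and of 0.103 points without RD female 1 and RD male 2. These 2 samples, at 75.2 and 70.4%, lay inside the HFD range. The 2 sites in the body of Igf2r (chr17:12709656-12709659) were highly methylated, at 91.8% ± 5.44 in HFD and 91.6% ± 4.71 in RD. The single site in distal Airn (position 12832940, 91629 bp from its start) was at 89.2% ± 2.59 in HFD and 86.9% ± 3.55 in RD (SD, n = 6 each). The diet differences of these 2 sites together and of the single Airn site were 0.18 and 2.29 points. Without RD female 1 and RD male 2 they were -1.74 and 0.425 points. No test was made of whether these differences depart from those of the start regions.

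**Figure D4:**
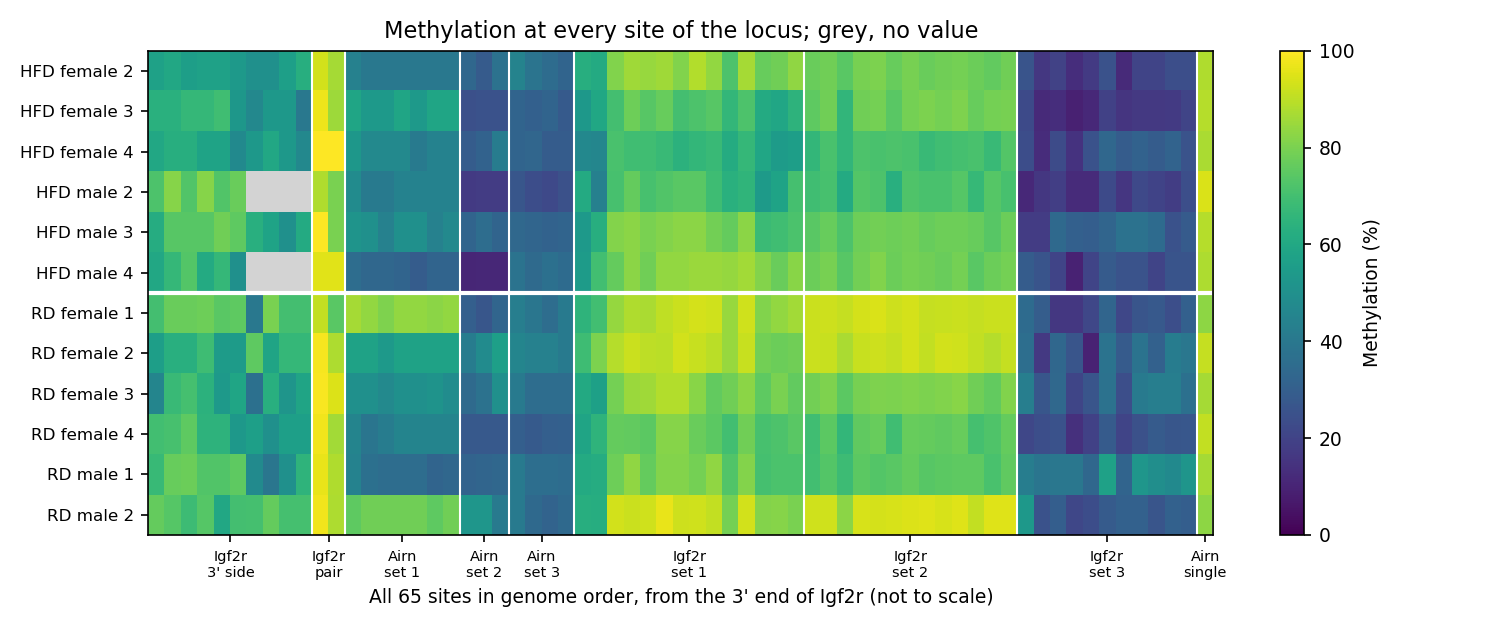
Methylation (%, colour) of all 65 sites in genome order (horizontal, not to scale) in each offspring (vertical), with grey for no value. The change from 79.4% in the second Igf2r set to 26.7% in the third is seen in all 12 offspring.

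Females and males were compared next, a contrast the choice of the locus did not use. In the Airn start region methylation was 44.5% ± 8.29 in females (SD, n = 7) and 39.4% ± 11.8 in males (SD, n = 5). The difference of 5.15 points did not pass (exact permutation test within diets, two-sided, p = 0.327, adjusted p = 0.653 over the 2 regions). It was 6.001 points within HFD and 0.483 points within RD, and single samples moved it: it was 10.1 points without RD male 2 (exact permutation p = 0.05), 3.46 without HFD male 2, 2.55 without HFD male 4 and 2.64 without RD female 1. In the Igf2r 5′ region it was 62.7% ± 6.82 and 63.2% ± 6.67, a difference of -0.536 points (exact permutation p = 0.843, adjusted p = 0.843). The sign of this value is not stable, since it turned without HFD female 3, HFD female 4, RD female 4, RD male 1 or RD male 2 (0.0519 to 1.63 points) and with the median over sites. Within diets it was -2.26 points in HFD and -2.01 points in RD. The pooled differences carry some of the diet difference, since RD offspring were 4 of 7 females and 2 of 5 males. The same holds for the permuted differences, which are therefore not centred on equal means. The two-sided p-values thus weigh the directions unequally and are a rough guide only. At single sites 0 of 60 differed between the sexes with limma at an adjusted p under 0.05, against 0.0% of all sites. At an unadjusted p under 0.05 there were 2, against 5.3% of all sites. Both of these lay near the 3′ end of Igf2r, at positions 12689043 and 12689092, and were lower in females. The count was 0 without HFD male 3 or RD male 1, 1 without HFD female 2, 3 or 4, HFD male 2 or RD female 2 or 3, 4 without HFD male 4 or RD male 2 and 5 without RD female 1, so it rests on single samples. The 6 sites there averaged 62.9% ± 6.31 in females and 71.3% ± 5.12 in males, and as a 500 bp tile they did not pass (limma adjusted p = 0.851, against 0.0168% of all tiles called). For the interaction of diet and sex, limma called 0 of 60 sites, with 0 at an unadjusted p under 0.05, against 0.0% and 5.11% of all sites. Leaving out 1 sample gave 0 to 2 such sites.

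The neighbouring genes of the cluster were examined in windows that reach 1000 bp to either side of the 2 ends of a gene. Of 12 genes listed, 7 had a window, and with limma 0 of the 3 windows within the limits for testing differed between the diets, against 0.12% of all 4170 windows tested. The median difference over the 7 windows was 0.213 points, against 0.0925 points over all windows with sites, and the 3 tested windows (Slc22a3, Acat2 and Plg) differed by -3.37, -1.96 and -0.215 points. Slc22a3, an organic cation transporter gene that Airn silences in the placenta, was at 9.22% ± 3.45 in HFD and 12.6% ± 5.53 in RD (SD, n = 6 each; limma adjusted p = 0.821). In HFD offspring Plg and Acat2 were highly methylated, at 93.9 and 88.8%, and Tcp1, Mrpl18, Sod2 and Map3k4 were at 1.28 to 5.14%. Tcp1, Mrpl18, Sod2 and Map3k4, which were not tested, were higher in HFD by 0.213, 0.371, 3.15 and 0.658 points.

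Of 16 genes of the IGF2 axis, 10 had a window and 0 of 3 tested windows differed between the diets with limma, against 0.12% of all windows tested. The median difference over the 10 windows was 0.150 points, against 0.0925 points over all windows with sites, and the tested windows of H19, Igfbp6 and Plagl1 differed by 1.20, 3.13 and -15.3 points. The H19 window, with 3 sites at chr7:142575795-142575863, was at 76.7% ± 2.64 in HFD and 75.5% ± 1.87 in RD (SD, n = 6 each). Windows lie at gene ends, so this value was not taken to read the control region that governs Igf2. Plagl1, an imprinted regulator of growth, had the largest difference, at 51.8% ± 3.94 against 67.2% ± 5.44 (limma adjusted p = 0.147). Igf1r and M6pr, which encode the IGF1 receptor and the smaller mannose 6-phosphate receptor, were at 1.87% and 1.18% in HFD.

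Other loci whose imprint is methylated on the maternal copy were set beside Airn. Of 13 listed, 9 had a window, and 7 of their 10 windows were lower in HFD. A window at a gene end need not hold the imprint. Those of Grb10 and Inpp5f, counted among the 10, were at 4.34 and 2.69% and were not tested. With limma 2 of 8 tested (Peg13 and Zrsr1) passed, at adjusted p-values of 0.00105 and 0.0120. Peg13 passed with any 1 sample left out (limma adjusted p of 0.00113 to 0.00804), and Zrsr1 did not pass without HFD female 4 (0.0535) or RD male 2 (0.0680). With the replicate number added to the fit, Peg13 passed (limma adjusted p = 0.0172) and Zrsr1 did not (0.264). Among all 4170 windows tested, 2182 were lower in HFD and 5 (0.12%) passed. The median difference over the 10 windows was -6.05 points, against 0.0925 points over all windows with sites. These loci had been seen in earlier results, so this is no independent evidence of a direction. Over the 8 windows at 20 to 80%, the mean per sample was 50.8 to 54.2% in HFD and 57.9 to 64.1% in RD offspring, without overlap. Over all autosomal sites at 20 to 80% the diets did not overlap either, at 55.19 to 55.95% in HFD and 55.997 to 57.55% in RD, but by a far smaller gap. The difference between these separations was not tested. In the mean of the 8 windows RD female 1 and RD male 2, the highest samples in the Airn start region, ranked 5 and 3 of 12, and RD female 3 was highest. Nnat (2 windows, -0.151 and 2.98 points) and Nap1l5 (6.84 points), imprinted in the same way, were not lower in HFD by more than their spread. The part of library order in these shared differences was not tested.

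The windows whose 12 sample values were most like the Airn start region, among 861 at 20 to 80%, were those of Klf2 (Pearson's r = 0.926), Snurf (0.865), Ankrd13a (0.844), Zfp653 (0.820) and Serpina12 (0.818). For the Igf2r 5′ region they were Lrrc14b (0.887), Erich3 (0.866), Basp1 (0.849), Zrsr1 (0.834) and Ankrd13a (0.809). Snurf lies at the Snrpn imprint and Zrsr1 is an imprinted gene. These are descriptions over 12 samples that share diet and library order, chosen as the highest of many values.

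Cell markers could be examined only in part, since methylation is not expression and few of these genes had sites. Of 9 cardiomyocyte genes 3 had a window, with Myh6 at 67.3% and Tnnt2 at 49.0% in HFD and Ryr2 at 2.30%, and 0 of 2 tested differed between the diets with limma, against 0.12% of all 4170 windows tested. Of 6 endothelial genes only Esam had one, at 19.5% ± 3.82 in HFD and 35.0% ± 3.61 in RD (SD, n = 6 each; limma adjusted p = 0.0300). With 1 sample left out Esam passed in 3 of 12 cases, namely without HFD female 3, HFD male 3 or RD female 4, and the adjusted p was 0.0185 to 0.119. Of 4 smooth muscle and pericyte genes 2 had a window (4.70% at Myh11 and 8.93% at Pdgfrb in HFD), and 0 of 2 tested differed with limma. A window was present for 0 of 6 fibroblast and 0 of 4 blood genes, so none of these was tested. The part of cell composition in the differences at Igf2r and Airn was not tested.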

How the data were processed

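RRBS libraries of 12 left ventricles were made by MspI digestion and bisulfite conversion and sequenced on a NovaSeq, per the labels' protocols. FastQC, Trim Galore, Bismark 0.19, limma and mm10 are named in the submitters' processing notes, without role or order. The authors deposited percent methylation per cytosine and sample, per the file headers, without coverage, and the table was used as deposited. Coverage minimum and filters are not given in the sources used here. Of rows inside RefSeq promoters, 99.98% lay on the C or G of a CG, so the strands are separate rows.

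Region values were means over sites with a value in all 12 samples. Site, tile and window fits used limma 3.58.1 (R 4.3.3) on log2((rate + 0.05)/(1 − rate + 0.05)), with diet and sex additive, over all autosomal sites with a mean of 5 to 95% (157524), and Benjamini-Hochberg adjustment over all of them. Tiles were 500 bp with at least 3 sites. The fits were tested on simulated data. Single values were tested by exact permutation (scipy 1.17.1). Sites were named by highest and lowest mean and largest and smallest diet differences, and like windows by r. Site sets were drawn after the levels were seen. Members and lists were chosen with earlier results of these data known. Gene and promoter tables were RefSeq GRCm38.p6. Same-numbered offspring of a diet did not deviate together (r of -0.0667 to 0.000660), so numbers were not used as pairs. The values of the 2 RD males mirror each other (-0.0667 and 0.0667 with RD female 1). This check is therefore weak and cannot tell whether offspring share a mother.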

Additional observations from a re-analysis of the deposited data

Results flagged for a closer look

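Of 69 groups of values examined, 3 held a sample whose gap to its nearest neighbour took up an unusually large part of the group's range (Dixon's 95% criterion), where chance picks out about 1 in 20, or 3.45. At the 2 sites in the body of Igf2r, RD female 1 was at 82.7% and the other RD offspring at 91.9 to 96.8%. At the single site in distal Airn, HFD male 2 was at 94.2% and the other HFD offspring at 87.1 to 89.0%. At position 12769534, the site of lowest mean in the Igf2r 5′ region, HFD male 3 was at 30.6% and the other HFD offspring at 9.09 to 14.6%. The high values of RD female 1 and RD male 2 in the first Airn set did not meet the criterion, which measures the gap of a single sample to its nearest neighbour.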

How the results depend on the processing

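Averaging every site, averaging rows 1 bp apart and widening the bounds by 500 bp left the same sites in both regions, so these alternatives gave the reported values by construction. The log2 ratio kept the direction of the diet, level and sex differences and of the correlation. Leaving out 1 sample gave diet differences of -13.2 to -8.38 points in the Airn start region and -10.7 to -8.02 points in the Igf2r 5′ region, level differences of -21.4 to -19.3 points, r of 0.631 to 0.786, and sex differences of 2.55 to 10.1 points (Airn) and -2.99 to 1.63 points (Igf2r). The last changed sign without HFD female 3, HFD female 4, RD female 4, RD male 1 or RD male 2. It also turned with the median over sites (0.602 points). These pooled values shift with the mix of diets as well as with single samples. Within HFD and within RD the differences were -2.26 and -2.01 points, and these were not recomputed with samples left out. Without both RD female 1 and RD male 2, an alternative chosen after seeing the data, the diet differences were -4.94 points (Airn) and -7.18 points (Igf2r), the sex difference in Igf2r was 0.355 points, and the pooled r was 0.497, with fewer samples. With the replicate block the diet differences were -8.65 and -8.66 points, the sex differences 4.59 and -1.59 points (exact permutation p = 0.517 and 0.693), and the count of sites at an unadjusted p under 0.05 between the diets 5 in place of 22 (limma). Over all sites the calls for diet went from 16 to 0 with the block and over all windows from 5 to 2. The Zrsr1 window no longer passed (limma adjusted p = 0.264), and Peg13 (0.0172) and Esam (0.0328) did. The replicate numbers only name the samples, and the block changed no call at sites of the locus. At Zrsr1 the diet difference in log2 ratio was -0.836 with the block and -0.866 without it. For the other calls lost under the block the differences were not compared. The window refits were chosen after seeing the data. In all alternatives and samples left out, limma called 0 sites or tiles of the locus for diet, sex or their interaction. Calls were also few over all sites. For diet they were 0 of 157524 with the block, 78 of 157524 with untransformed rates and 54 of 60636 at 20 to 80%. For sex and for the interaction they were 0 of 157524 in the main fit. A count of 0 at the locus therefore says little of it. The coverage minimum of 20 reads could not be applied to percentages alone, and the sites between the regions gave no value because there are none. Unknown depth limits every single-site value.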
